A study of Mus musculus with 4 samples.

Results

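The receptors RANK, CD40 and LTβR of medullary thymic epithelial cells (mTECs) and the proteins that act directly below them are encoded by 10 genes, chosen by name. They are the receptor genes Tnfrsf11a (RANK), Cd40 and Ltbr, the gene of the RANKL decoy Tnfrsf11b, the adaptor genes Traf2, Traf3 and Traf6, the ubiquitin ligase genes Birc2 and Birc3, and the kinase gene Map3k14. All 10 were found among the 23337 genes of the count table, and all 10 were among the 18547 genes that passed the filter on low counts. RNA-seq was run on mTECs of 4-week-old C57BL/6 mice, sorted as CD45-EpCAM+UEA-1+Ly51- cells, in 2 libraries labelled WT and 2 labelled Sirt6-/-. Per the study's methods, the second group carried Foxn1-Cre and loxP-flanked Sirt6, whereas the controls were littermates or age-matched mice that lacked Foxn1-Cre. Foxn1-Cre acts in the whole thymic epithelium, cortical cells included, and the effect of the Cre and that of Sirt6 cannot be told apart.

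RANK, CD40 and LTβR are members of the TNF receptor superfamily through which developing thymocytes and lymphoid tissue inducer cells drive the growth and maturation of mTECs. They have no enzyme activity of their own and recruit TRAF proteins. TRAF6 leads to the classical NF-κB pathway, whereas a complex of TRAF3, TRAF2 and the ubiquitin ligases cIAP1 and cIAP2 keeps the kinase NIK degraded in resting cells. When a receptor is engaged, TRAF3 is lost, NIK builds up, and p100 is processed so that RelB and p52 can enter the nucleus, which is the alternative pathway that mTECs need.

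The 4 libraries held between 61102704 and 65907745 counts, the detection floor was 3 counts, and the lowest count of any of the 10 genes was 1215. The targeted gene was examined first. Sirt6 was not lower under its label, with 622 and 755 counts in WT, against 882 and 835 with the Sirt6-/- label. Its level was 10.7 ± 1.67 CPM (counts scaled to a common library size with TMM factors; SD, n = 2) in WT and 13.8 ± 1.13 CPM in the libraries labelled Sirt6-/-, a log2 fold change of 0.37 (SE 0.32). The adjusted p was 0.800 by edgeR's quasi-likelihood test with Benjamini-Hochberg adjustment over all genes tested, and every direction below is by label. The position of the loxP sites was not used here, and counts over the whole gene need not show a deleted exon. Of 8 mTEC markers, summed levels ran from 5439 to 6215 CPM in WT and from 5674 to 6965 CPM in the libraries labelled Sirt6-/-. Ptprc, which encodes CD45, was still detected at 313 ± 69.1 and 377 ± 79.5 CPM in spite of the sort.

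In libraries labelled Sirt6-/-, 9 of the 10 genes had a higher level than in WT and Traf3 had a lower one. Fold changes are given on the log2 scale, and here and below a gene is said to pass when its unadjusted p in edgeR was under 0.05. Ltbr (log2 fold change 1.16), Birc2 (0.57) and Tnfrsf11b (0.48) passed and none passed downward. None of the 10 had an adjusted p under 0.05 by edgeR or by DESeq2, with edgeR values from 0.541 to 0.891 and DESeq2 values from 0.0787 to 0.958. Among all genes tested, 5.27% passed as higher and 3.32% as lower in edgeR, 0.00539% had an adjusted p under 0.05 in edgeR, and 1.88% had one in DESeq2. At the unadjusted p, DESeq2 also passed 3 of the 10 as higher, namely Ltbr, Birc2 and Traf6, against 5.8% of all its genes. The split of all calls depended on the scaling. The calls were 977 higher and 615 lower with TMM factors, 751 and 800 with upper quartile scaling, 721 and 838 with library size alone, and 908 and 874 with limma on log2(TPM + 1).

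The median log2 fold change of the 10 genes was 0.48, beside -0.0047 over all genes tested. The share with a log2 fold change above 0 was 9 of 10, against 49.6% of all genes. In CPM, the groups did not overlap for any of the 10 genes, with 9 higher and 1 lower, whereas 21.6% of all genes did not overlap upward and 20.3% downward. The number without overlap upward was 8 with DESeq2's size factors, 7 in the deposited TPM, and 6 with upper quartile scaling or library size alone, and the number downward was 1 in each. Non-overlap is common with 2 libraries against 2, and an exact permutation test of a single gene cannot give a p below 0.333. Labels do not state that the libraries of a group came from separate mice, and the study's methods call them independent parallel samples. The p-values measure only the spread between these libraries.

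**Figure D1:**
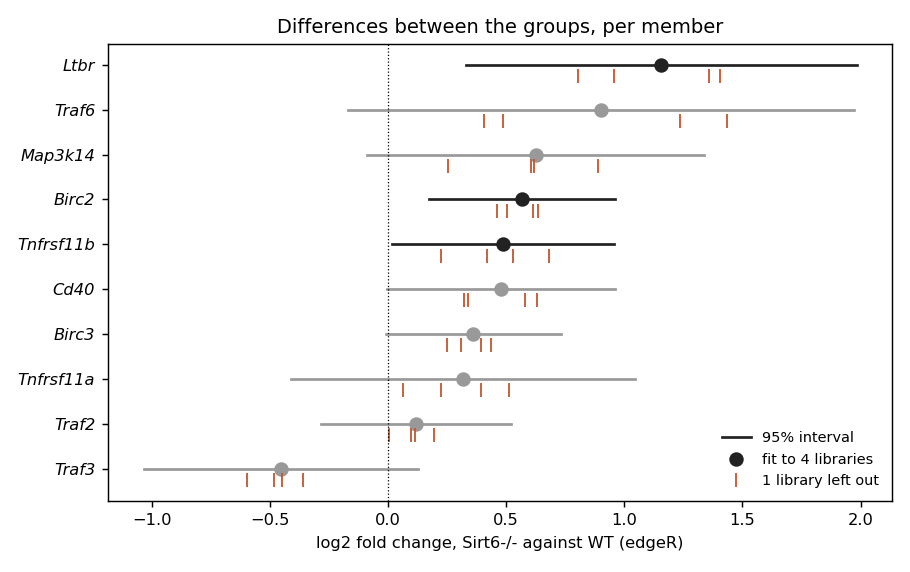
Log2 fold change of each of the 10 genes in the libraries labelled Sirt6-/- against WT from edgeR (points), with the 95% confidence interval (bars). Ltbr (1.16) lies farthest to the right, Traf3 (-0.46) is the gene below 0, and the intervals of Ltbr, Birc2 and Tnfrsf11b exclude 0.

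Ltbr, which encodes the lymphotoxin β receptor, had the highest log2 fold change of the 10 with all 4 libraries. It lies at chr6:125306571-125313885 on the minus strand of GRCm38 (GENCODE M21). Its counts were 1215 and 1533 in WT, against 3491 and 2390 with the Sirt6-/- label. Both of the latter stood above both WT libraries, and the library labelled Sirt6-/- 1 was the highest. The level went from 21.3 ± 3.91 to 47.6 ± 14.6 CPM, with a log2 fold change of 1.16 (SE 0.33, 95% confidence interval 0.33 to 1.98) and an adjusted p of 0.541 in edgeR and 0.0787 in DESeq2. The pass at the unadjusted p was lost without WT 1 (log2 fold change 0.95) and without Sirt6-/- 1 (0.81).

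Cd40 encodes the receptor for the CD40 ligand of activated and developing T cells. It lies at chr2:165055627-165072948 on the plus strand and had 18814 and 14495 counts in WT against 20115 and 24649 in the libraries labelled Sirt6-/-. The groups did not overlap, although WT 1 lay close to the lower of the other group. The log2 fold change was 0.48 (SE 0.19, adjusted p = 0.584 in edgeR), and its interval from -0.004 to 0.96 just included 0. Without WT 1 it was 0.63 and passed the unadjusted p.

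Tnfrsf11a, which encodes RANK, had 1349 and 1452 counts in WT, against 1400 and 1986 with the Sirt6-/- label (chr1:105780718-105847981, plus strand). WT 1, WT 2 and Sirt6-/- 1 lay close together and Sirt6-/- 2 stood above them, so that without Sirt6-/- 2 the log2 fold change went from 0.32 (SE 0.29) to 0.06. The 95% confidence interval of the change, -0.41 to 1.05, spanned 0.

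Tnfrsf11b encodes osteoprotegerin, a soluble receptor that binds RANKL and keeps it from RANK. It lies at chr15:54250619-54278484 on the minus strand and was the most abundant of the 10 genes per transcript length. Its counts were 52379 and 54232 in WT, against 59598 and 84931 with the Sirt6-/- label, again with Sirt6-/- 2 above the rest. The log2 fold change was 0.48 (SE 0.19, adjusted p = 0.569 in edgeR). Its interval, 0.01 to 0.95, barely excluded 0, and its pass at the unadjusted p was lost in 9 of 12 alternative settings, DESeq2 among them. Leaving out a library ended it for WT 1 (log2 fold change 0.42), WT 2 (0.53) and Sirt6-/- 2 (0.22).

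Birc2 and Birc3 encode cIAP1 and cIAP2, the ubiquitin ligases that TRAF2 brings to the receptors and that mark NIK for degradation. They lie 11634 bases apart on the minus strand of chromosome 9, Birc2 at chr9:7818227-7837064 and Birc3 at chr9:7848699-7873186. The 2 symbols were exchanged in older annotations. The transcript length implied by the ratio of counts to TPM was 3140 bases for Birc2 and 2811 for Birc3. The longest annotated transcripts have 3331 and 2909 bases. The implied length of Birc2 lies above the longest annotated transcript of Birc3 and below that of Birc2, which goes with the current use. The annotation used for counting is not given, so the lengths do not settle it. The current use is assumed here. The genes share some sequence, since 1.98% of the 50-base words of Birc2 transcripts occur in Birc3, and 7.34% of those of Birc3 occur in other genes, 3.36% in Gm7019.

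Birc2 counts were 21255 and 18840 in WT, against 26414 and 30897 with the Sirt6-/- label. Each of the latter was above each WT library, and the level went from 310 ± 20.3 to 460 ± 31.2 CPM. The log2 fold change of 0.57 (SE 0.16, adjusted p = 0.541 in edgeR) is a 1.48-fold difference, and the pass at the unadjusted p was lost without WT 2 (0.50) and without Sirt6-/- 2 (0.46). Birc3, itself a well-known NF-κB target, had 36209 and 36744 counts in WT, against 41463 and 49066 with the Sirt6-/- label. The WT libraries were close to each other and below both others. Its log2 fold change was 0.36 (SE 0.15, 95% confidence interval -0.01 to 0.73), and it did not pass.

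The sequences upstream of 3 genes show what lies before their starts. Ltbr and Birc2 were the 2 genes that passed in most settings. Birc3 is the neighbour of Birc2 and the one of the 3 with a match to the κB motif used here. The 250 bases before each RefSeq start site (GRCm38.p6, minus strand, written 5′ to 3′) are given, from chr6:125313886-125314135, chr9:7837058-7837307 and chr9:7873171-7873420, with matches to a κB motif, GGGA followed by any 4 bases and CC, in capitals.
Ltbr: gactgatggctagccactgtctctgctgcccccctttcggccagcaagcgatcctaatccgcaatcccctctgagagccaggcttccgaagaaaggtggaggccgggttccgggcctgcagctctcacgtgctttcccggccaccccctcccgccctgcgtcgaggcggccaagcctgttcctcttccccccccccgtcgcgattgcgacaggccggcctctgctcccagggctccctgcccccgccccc
Birc2: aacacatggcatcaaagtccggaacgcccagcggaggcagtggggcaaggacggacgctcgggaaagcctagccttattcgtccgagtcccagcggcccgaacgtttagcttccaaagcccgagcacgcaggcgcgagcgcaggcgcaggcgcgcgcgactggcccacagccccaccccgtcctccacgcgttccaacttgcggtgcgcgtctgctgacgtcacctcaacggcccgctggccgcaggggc
Birc3: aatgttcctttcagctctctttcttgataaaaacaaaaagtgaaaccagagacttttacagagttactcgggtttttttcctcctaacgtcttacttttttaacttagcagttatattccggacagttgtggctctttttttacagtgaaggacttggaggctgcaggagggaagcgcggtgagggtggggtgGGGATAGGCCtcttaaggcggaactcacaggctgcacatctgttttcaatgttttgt
On either strand of windows from 250 bases before to 50 bases after the start, the motif occurred in Birc3 and Traf6, in both at 57 bases before the start, and in Traf2 at 32 bases after it. These were 3 of the 8 genes with an entry and 3 of their 9 windows, whereas 20.7% of 32851 mouse promoter windows of the same length held it. The motif as written allows only A after GGG, so that ggggatttcc in the Traf3 window was not counted. These matches therefore do not show which of the genes hold a κB-like sequence in a wider sense. A match of letters is a description and not a bound site. Cd40 and Tnfrsf11b had no entry.

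Of the adaptors, Traf6 had the widest spread. TRAF6 joins RANK and CD40 to the TAK1 and IKK kinases. Its counts were 3023 and 5563 in WT, against 9712 and 5682 with the Sirt6-/- label (chr2:101678429-101701669, plus strand), so that WT 2 and Sirt6-/- 2 were alike, WT 1 was far below them and Sirt6-/- 1 far above. The log2 fold change was 0.90 (SE 0.43, adjusted p = 0.637 in edgeR), and it moved from 0.41 without Sirt6-/- 1 to 1.43 without WT 2. It passed the unadjusted p without WT 2, without Sirt6-/- 2 (1.24) and with DESeq2. In the deposited TPM the groups overlapped, with 18.3 and 35.6 TPM in WT and 64.0 and 35.5 TPM in the other group.

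Traf2 had 16419 and 15908 counts in WT, against 15503 and 18384 with the Sirt6-/- label (chr2:25517982-25546940, minus strand). TRAF2 carries the cIAP ligases to the complex, and its gene was the least changed of the 10, with a log2 fold change of 0.12 (SE 0.16, 95% confidence interval -0.28 to 0.52). The counts themselves overlapped and the groups parted only after scaling.

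Traf3, whose product holds NIK in the complex that degrades it, had the one lower level. Its counts were 3975 and 3706 in WT, against 2860 and 2524 with the Sirt6-/- label (chr12:111166370-111267153, plus strand), with every WT library above every other. The level went from 59.5 ± 1.76 to 43.4 ± 5.68 CPM. Its log2 fold change of -0.46 (SE 0.23, 95% confidence interval -1.04 to 0.12) did not pass the unadjusted p in any of the 12 settings tested, and it was below 0 in all of them.

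Map3k14 encodes NIK, the kinase that starts p100 processing. It had 3661 and 3525 counts in WT, against 6360 and 4255 with the Sirt6-/- label (chr11:103219762-103267472, minus strand, with 135 exonic bases shared with 1700028N14Rik on the same strand). The WT libraries were nearly equal, and Sirt6-/- 1 was the highest. The log2 fold change was 0.63 (SE 0.28, adjusted p = 0.625 in edgeR), 0.25 without Sirt6-/- 1 and 0.89, with a pass at the unadjusted p, without Sirt6-/- 2. Abundance of NIK is set mostly at the protein level, which RNA-seq does not measure.

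**Figure D2:**
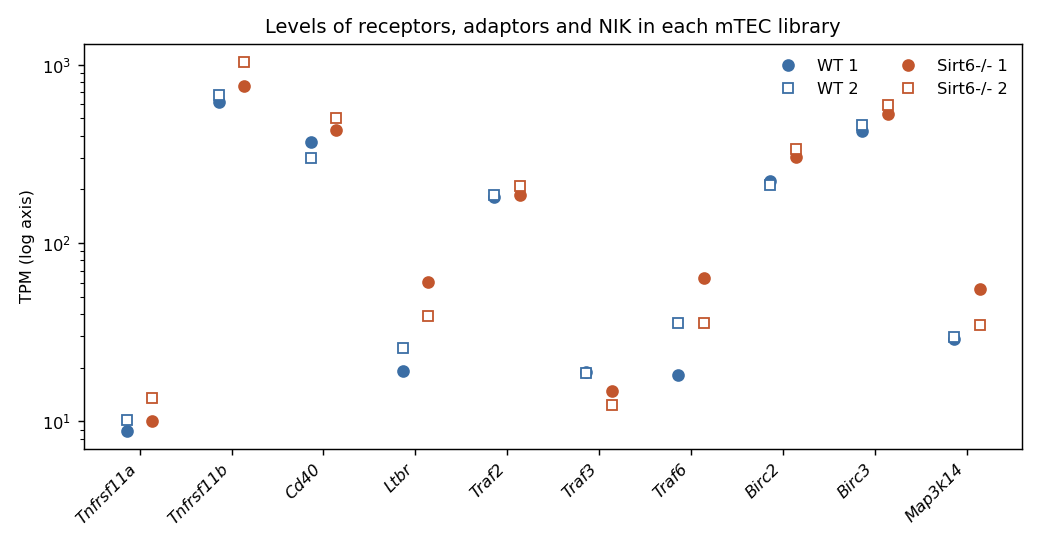
Level of each of the 10 genes in each library on a log scale, WT and libraries labelled Sirt6-/-. Ltbr, Traf6 and Map3k14 were highest in Sirt6-/- 1, the other genes with a higher level were highest in Sirt6-/- 2, and Traf3 was highest in WT.

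The genes thus differed in which library led. Ltbr, Traf6 and Map3k14 were highest in Sirt6-/- 1, and Tnfrsf11a, Tnfrsf11b, Cd40, Traf2, Birc2 and Birc3 in Sirt6-/- 2. Krt5, a keratin of medullary epithelium, went from 89.1 ± 45.5 to 165 ± 62.2 CPM and had its highest count, 12617, in Sirt6-/- 1 and its lowest, 3728, in WT 1, the order of Traf6. Its part in the result was not tested.

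On the TPM scale, which divides by transcript length, the order in WT ran from Tnfrsf11b (645 ± 41.6 TPM, SD, n = 2) through Birc3 (442 ± 22.3), Cd40 (335 ± 48.7), Birc2 (217 ± 9.84) and Traf2 (184 ± 3.25) to Map3k14 (29.3 ± 0.386), Traf6 (27.0 ± 12.3), Ltbr (22.5 ± 4.56), Traf3 (18.7 ± 0.179) and Tnfrsf11a (9.51 ± 0.875). Neighbours in this order did not overlap, except Map3k14 with Traf6 and Traf6 with Ltbr. Among the receptors of the cell surface, Cd40 was therefore far above Ltbr and RANK, and the RANKL decoy was the most abundant transcript. In the libraries labelled Sirt6-/- the first 5 and the last 2 places were the same, with Tnfrsf11b at 897 ± 189 TPM and Tnfrsf11a at 11.8 ± 2.45 TPM. There Ltbr had 60.2 and 39.1 TPM, next to Traf6 at 49.8 ± 20.2 and Map3k14 at 44.9 ± 14.2 TPM.

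Ratios of TPM within a library do not depend on how the libraries are scaled. The ratio of the NIK gene to Traf3 was 1.54 and 1.59 in WT, against 3.72 and 2.82 with the Sirt6-/- label. Both of the latter stood above WT, which follows from the higher Map3k14 and lower Traf3 given above and adds no separate result. That of Traf2 to Traf3 was 9.61 and 9.99 in WT, against 12.6 and 16.9 with the Sirt6-/- label, again without overlap. Birc2 to Traf2 was 1.24 and 1.13 in WT, against 1.63 and 1.60 with the Sirt6-/- label. Birc3 to Birc2 had the opposite order, with 1.90 and 2.18 in WT, against 1.75 and 1.77 with the Sirt6-/- label. The decoy receptor exceeded RANK 69.2-fold and 66.6-fold in WT, against 75.9-fold and 76.2-fold with the Sirt6-/- label, a small difference beside the size of the ratio. Cd40 to Ltbr (19.2 and 11.7 in WT, 7.15 and 12.8 in the other group) and Cd40 to RANK overlapped between the groups. With 2 libraries a group these ratios were not tested beyond their overlap.

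**Figure D3:**
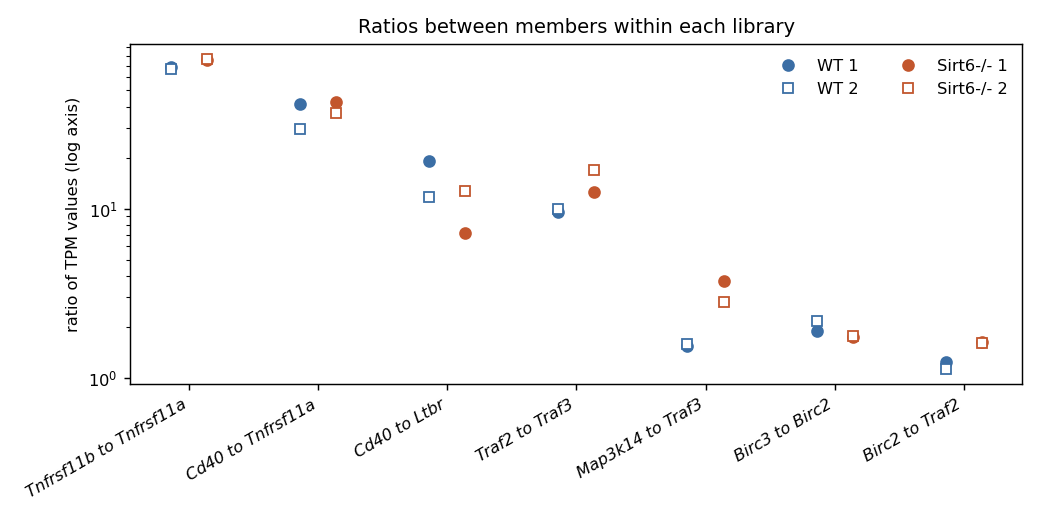
TPM ratios between pairs of the 10 genes within each library on a log axis, WT and libraries labelled Sirt6-/-. Map3k14 to Traf3 stands at 1.54 and 1.59 in WT and at 3.72 and 2.82 in the other group, whereas the groups overlap for Cd40 to Ltbr and Cd40 to Tnfrsf11a.

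The 10 genes ran from -0.46 to 1.16, and their median was near the change of Epcam, the epithelial protein used in the sort. Epcam was at 765 ± 9.05 CPM in WT and 1066 ± 88.5 CPM in the libraries labelled Sirt6-/-, a log2 fold change of 0.48 (SE 0.14), beside the median of 0.48 of the 10 genes. Of the 8 mTEC markers, 5 had a log2 fold change above 0, Epcam among them. The 3 below 0 were Krt8 (-0.33), Cldn3 (-0.31) and Fezf2 (-0.20). The part of epithelial content in the differences was not tested. In bulk samples, fewer cells of a type and less RNA per cell cannot be told apart. With counts divided by those of Epcam, a scaling chosen after seeing the data and given without a test, 1 gene did not overlap upward (Ltbr, log2 difference 0.66), against 5.88% of all genes. On that scale 3 did not overlap downward (Traf3 -0.94, Traf2 -0.36 and Birc3 -0.12), against 47.5% of all genes, and 6 overlapped. Tnfrsf11a (-0.17), Tnfrsf11b (-0.01), Traf2 and Birc3 changed sign, and the log2 difference went from 0.90 to 0.43 for Traf6, from 0.63 to 0.11 for Map3k14, from 0.57 to 0.09 for Birc2 and from 0.48 to 0.01 for Cd40, each with overlapping groups. Ltbr as higher and Traf3 as lower were the genes whose groups did not overlap in the same direction under both scalings.

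Several lists of cell markers differed between the groups as well. Of all genes tested, 5.27% passed as higher and 3.32% as lower. Macrophage and dendritic cell markers summed to 3009 to 4901 CPM in WT and 1979 to 2088 CPM in the libraries labelled Sirt6-/-, with 2 of 10 lower at the unadjusted p (Lyz2 and Emr1), and the groups overlapped without Lyz2 (194 to 254 and 181 to 201 CPM). Lyz2 alone went from 3731 ± 1295 to 1842 ± 91.1 CPM. Thymocyte and CD45 markers summed to 1529 to 2128 CPM and 1259 to 1939 CPM, with 0 of 11 passing in edgeR at the unadjusted p. Of these 11, 8 were below 0 and 3 above, whereas 49.6% of all genes tested were above 0. B cell markers, from cells that also express Cd40, summed to 139 to 180 CPM in WT and 110 to 148 CPM in the other group, with 0 of 5 passing and Pax5 at 0 in WT 1 and Sirt6-/- 2. Fibroblast and endothelial markers, cells that express Ltbr and osteoprotegerin, summed to 224 to 277 CPM in WT and 293 to 321 CPM in the libraries labelled Sirt6-/-, with 0 of 8 passing. Tuft cell markers were at 265 to 307 CPM against 179 to 190 CPM with 3 of 6 lower. Cortical epithelial markers were at 1108 to 1119 against 980 to 1290 CPM, with 1 of 7 higher (Ly75, log2 fold change 1.14) and 0 lower. Of these 7, 4 were below 0 and 3 above. Immediate early genes were at 13839 to 15452 against 17132 to 18505 CPM with 5 of 11 higher. DESeq2 also passed 0 thymocyte, B cell, fibroblast or endothelial markers at the unadjusted p. The part of these markers in the differences of the 10 genes was not tested.

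**Figure D4:**
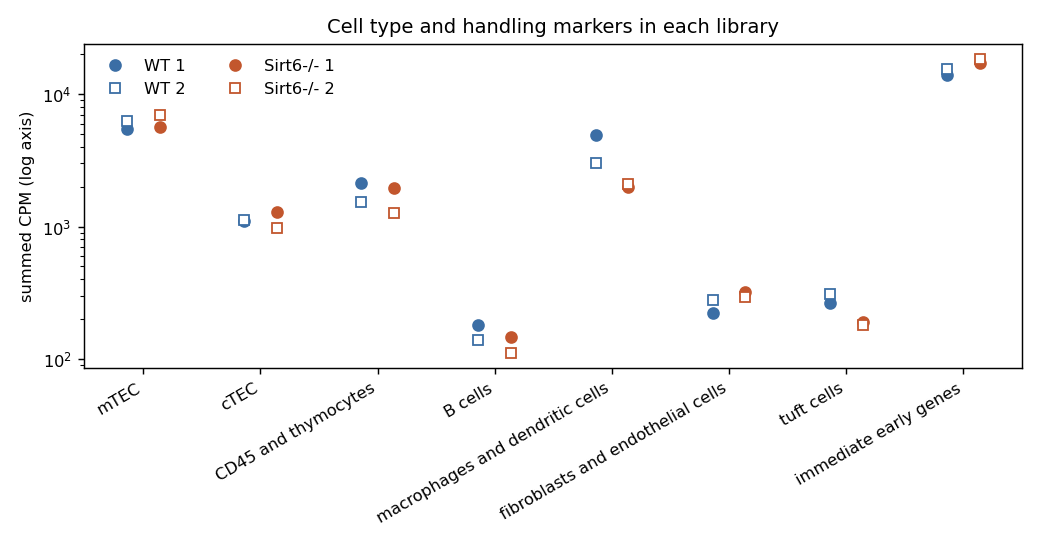
Summed CPM of each list of cell markers in each library on a log axis, WT and libraries labelled Sirt6-/-. Macrophage and dendritic cell and tuft cell markers are lower and immediate early genes and fibroblast and endothelial markers higher in both libraries labelled Sirt6-/-, whereas B cell, thymocyte, cortical and mTEC markers overlap.

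The other genes of these pathways were read from 7 lists with 83 genes in all. Of them, 15 passed as higher, 4 as lower and 64 did not pass, with a median log2 fold change of 0.19. None of the 83 had an adjusted p under 0.05 in edgeR, and 7 had one in DESeq2. Each list below is to be read beside all genes tested, of which 5.27% passed as higher and 3.32% as lower. The median of all genes tested was -0.0047. At the unadjusted p, DESeq2 gave the same number of calls in every list, apart from 2 lower ones among the other TNF receptors. Of the 5 ligands, 2 passed as lower and 3 did not pass, with a median of -0.57. Ltb, which encodes the membrane subunit of the LTβR ligand, had 3717 and 3341 counts in WT, against 1718 and 1482 with the Sirt6-/- label, a log2 fold change of -1.08 (SE 0.25, adjusted p = 0.541 in edgeR and 0.016 in DESeq2). Cd40lg, the gene of the CD40 ligand, had 563 and 599 counts in WT, against 256 and 272 with the Sirt6-/- label, a log2 fold change of -1.09 (SE 0.38), and no longer passed when any 1 library was left out (-1.17 without WT 1, -1.02 without WT 2, -1.09 without Sirt6-/- 1 and -1.12 without Sirt6-/- 2). Tnfsf11, which encodes RANKL, had 433 and 212 counts in WT, against 189 and 393 with the Sirt6-/- label, so that the groups overlapped. Ltb and Cd40lg are known mainly as genes of lymphocytes. Of the 11 thymocyte and CD45 markers given above, 8 were below 0 and 3 above, namely Rag1 (0.75), Cd3e (0.55) and Ptprc (0.27). None of the 11 passed, and 49.6% of all genes tested were above 0. The part of lymphocytes in the lower Ltb and Cd40lg was not tested.

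Among NF-κB subunits and inhibitors, 5 of 11 passed as higher and none as lower, with a median of 0.32. The alternative pathway's Relb had 3361 and 3635 counts in WT, against 5430 and 6026 with the Sirt6-/- label, and a log2 fold change of 0.76 (SE 0.20). Its partner Nfkb2, which encodes p100 and was named after its values were seen, was at 0.62 (SE 0.22). Nfkbiz, which NF-κB induces, encodes an atypical nuclear relative of the NF-κB inhibitors. It was at 0.87 (SE 0.17, adjusted p = 0.541 in edgeR and 0.015 in DESeq2). Nfkbid was at 0.61 (SE 0.18) and Rel, a subunit of the classical pathway, at 0.55 (SE 0.17). Relb, Nfkbiz, Nfkbid and Rel were named for a pass without overlap, so that their lack of overlap is not a further result. Of the 11 genes, 7 did not overlap upward and 1 downward (Bcl3, -0.60), against 21.6% and 20.3% of all genes tested. The pass was lost for Relb without WT 1 (0.66) and Sirt6-/- 2 (0.70), for Nfkb2 without WT 1 (0.37), Sirt6-/- 1 (0.52) and Sirt6-/- 2 (0.68), for Nfkbid without WT 1 (0.51), Sirt6-/- 1 (0.64) and Sirt6-/- 2 (0.54), and for Rel without WT 1 (0.47), Sirt6-/- 1 (0.53) and Sirt6-/- 2 (0.54).

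The feedback list holds deubiquitinases and their partners that restrain NF-κB, of which only some are induced by it. Of its 9 genes, 3 passed as higher and none as lower, with a median of 0.43. Tnip1, whose product binds A20, had 28807 and 23485 counts in WT, against 42658 and 42991 with the Sirt6-/- label. Its log2 fold change was 0.77 (SE 0.16, adjusted p = 0.541 in edgeR and 0.030 in DESeq2). Tnfaip3, the gene of A20 itself, was at 0.47 (SE 0.15) and no longer passed when any 1 library was left out (0.48 without WT 1, 0.44 without WT 2, 0.53 without Sirt6-/- 1 and 0.38 without Sirt6-/- 2). Itch, a ubiquitin ligase that works with A20, had 5519 and 5786 counts in WT, against 13109 and 7292 with the Sirt6-/- label. Its log2 fold change was 0.92 (SE 0.34) and the pass was lost without WT 1 (0.84), WT 2 (0.97) and Sirt6-/- 1 (0.38).

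The kinase complexes between receptor and NF-κB gave no call. None of the 12 genes of the IKK, TAK1 and linear ubiquitin complexes passed at the unadjusted p in edgeR or in DESeq2, with a median of 0.10, and the most abundant of them, Ube2v1, had a log2 fold change of -0.13. Of 11 other receptor-proximal genes, other TRAFs included, Xiap alone passed, with 1734 and 2121 counts in WT, against 3836 and 2852 with the Sirt6-/- label (log2 fold change 0.85, SE 0.29). XIAP is a relative of the cIAPs, and its pass was lost without WT 1 (0.67) and Sirt6-/- 1 (0.57). Of 24 other TNF receptors, Tnfrsf19 and Relt passed as higher, with a median of 0.22 for the list. Tnfrsf19 had 1000 and 520 counts in WT, against 2348 and 2298 with the Sirt6-/- label. Its log2 fold change was 1.67 (SE 0.39, adjusted p = 0.541 in edgeR and 0.010 in DESeq2). Relt was at 0.77 (SE 0.24), with its pass lost without WT 2 (0.65) and Sirt6-/- 2 (0.52).

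**Figure D5:**
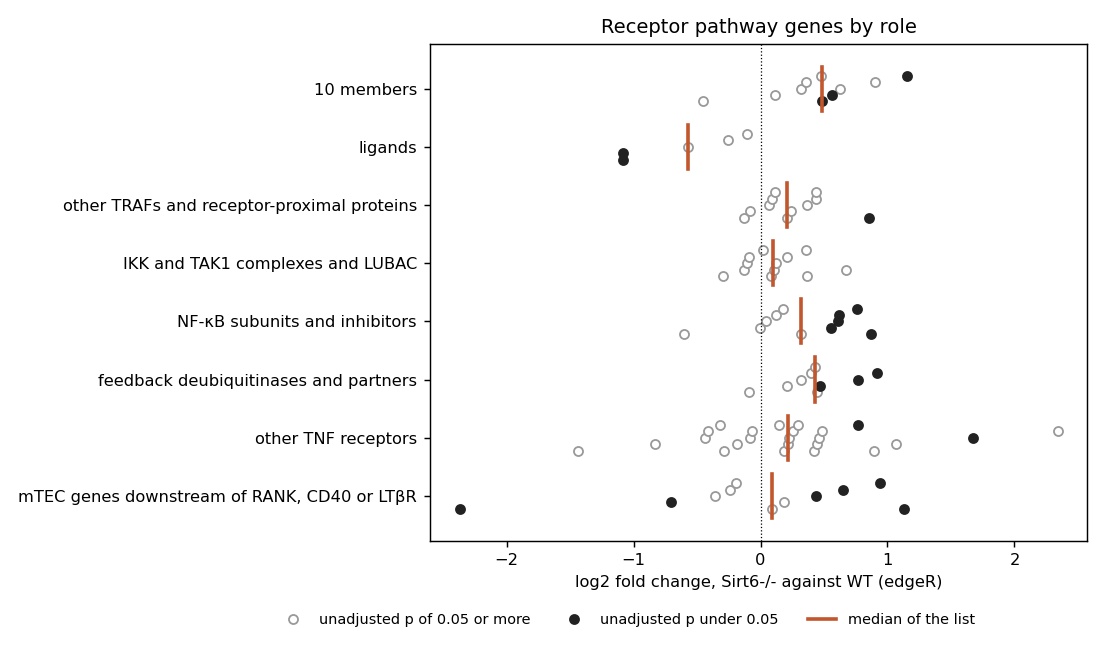
Log2 fold change in edgeR of each gene of the 10 members and of the 7 lists of related genes, filled where the unadjusted p was under 0.05, with the median of each list as a bar. The ligands lie below 0 (median -0.57), the feedback list has a median of 0.43, and the mTEC genes downstream spread from -2.37 to 1.13.

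Genes that mTECs express under the control of these receptors moved in both directions, 4 of 11 passing as higher and 2 as lower, with a median of 0.09. Spib, a transcription factor gene induced by RANK and CD40, had 33907 and 32819 counts in WT, against 67018 and 74018 with the Sirt6-/- label, a log2 fold change of 1.13 (SE 0.14, adjusted p = 0.340 in edgeR and 4.1e-06 in DESeq2). Cd80, the gene of a costimulatory ligand of mature mTECs, had 4508 and 4469 counts in WT, against 7434 and 9226 with the Sirt6-/- label. Its log2 fold change was 0.94 (SE 0.20, adjusted p = 0.541 in edgeR and 0.011 in DESeq2). Aire, the regulator of tissue-restricted antigens, was at 0.65 (SE 0.18), with its pass lost without WT 1 (0.49) and Sirt6-/- 2 (0.49). Ccl21a, the chemokine gene of an LTβR-dependent mTEC subset, had 32962 and 78096 counts in WT, against 8324 and 12621 with the Sirt6-/- label. Its log2 fold change was -2.37 (SE 0.46, adjusted p = 0.541 in edgeR and 9.0e-06 in DESeq2), and -1.59 without WT 2. Thus Ltbr was higher in both libraries in which its ligand gene Ltb and Ccl21a were lower.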

How the data were processed

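RNA-seq of mTECs gave 4 libraries, 2 of each label. Per the study's methods, Trim Galore trimmed the reads, HISAT2 2.1.0 placed them on mm10, and StringTie 1.3.3 gave the values per gene (versions from the submitters' processing notes). Annotation and strandedness are not given in the sources used here. The authors deposited whole-number counts per gene, not normalized, and TPM values, in which 1 line that names no gene holds the total and was left out.

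Counts were tested with edgeR 4.0.16 in R 4.3.3 (TMM, filterByExpr with minimum count 10 and total 15, glmQLFit and glmQLFTest), adjusted by Benjamini-Hochberg over 18547 genes, two-sided at 0.05. CPM uses the TMM factors. The libraries differed pairwise beyond sampling noise (chi-square per gene at least 167). Alternatives were DESeq2 1.42.0, no filter, TPM over 0.1 in all libraries, upper quartile scaling, library size alone, a replicate block, limma 3.58.1 on log2(TPM + 1) and log2(TPM + 0.1), and each library left out. Deposited TPM and scaling to Epcam were added after seeing the data. The test was checked on simulated counts.

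The 10 genes and all lists were chosen with earlier results of these data known. Named were the 10 genes, Sirt6, and, from each pathway list, up to 4 genes with an unadjusted p under 0.05 and no overlap, smallest p first, otherwise the most abundant gene. From marker lists, defining and most abundant markers were taken. Tnfsf11, Nfkb2 and Krt5 were named after their values were seen. Positions came from GENCODE M21 and promoters from RefSeq (GRCm38.p6). Figures used Python 3.11.15 and matplotlib 3.10.9.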

Additional observations from a re-analysis of the deposited data

How the results depend on the processing

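Of 120 values of the 10 genes under other settings, 99 kept both their direction and their side of the unadjusted p of 0.05, 13 lost the pass, 8 gained it and 0 changed direction. Scaled to Epcam, a setting added after seeing the data, Tnfrsf11a (-0.17), Tnfrsf11b (-0.0067), Traf2 (-0.36) and Birc3 (-0.12) changed direction, and the counts of genes without overlap went from 9 higher and 1 lower to 1 and 3. The number of the 10 that passed as higher was 3, and 2 with upper quartile scaling, with library size alone and without WT 1, WT 2 or Sirt6-/- 1. With the replicate number as a block it was also 3. Deviations from the group means correlated at -0.054 between libraries of the same number, so that the numbers were not taken to pair the libraries, and the block left 697 higher and 449 lower calls over all genes. With each library left out in turn, which leaves a group with a single library assumed to vary like the others, the pathway genes that passed ranged from 7 to 12 higher (15 in all 4 libraries) and from 2 to 4 lower (4 in all 4). Without Sirt6-/- 1, the calls over all genes were 394 higher and 332 lower. Of 16 named pathway genes that passed, 7 did so with every library left out. Scaling moved the median log2 fold change of all genes by at most -0.089. The biological coefficient of variation over all genes was 0.557, and every count of the 10 genes was at least 1215.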
